A study of Nasonia vitripennis with 140 samples.

Results

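Gustatory receptors and odorant-binding proteins are gene families of the insect chemical senses. They are described here in the parasitoid wasp Nasonia vitripennis, from embryos to dissected adults of both sexes. The genes were taken from the deposited count table by symbol, as every row whose symbol was Gr, Ir, Obp or Csp, in any case, followed by a number. The rule found 49 of 15471 genes, of which 46 were gustatory receptors (Gr) and 3 were odorant-binding proteins (OBP19, OBP67 and OBP77). It found 0 ionotropic receptors (Ir) and 0 chemosensory proteins (Csp) under such symbols, so both of those families are not analysed here. All 49 symbols matched a RefSeq gene of the assembly Nvit_psr_1.1, which was used for names and neighbours only.

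Gustatory receptors are membrane proteins that, in Drosophila, sit in sensory neurons of the mouthparts, legs, wings and ovipositor and respond to sugars, bitter compounds, carbon dioxide or pheromones. In the honey bee the receptors numbered Gr1 and Gr2 respond to sugars and Gr3 responds to fructose, and no ligand is known from these sources for the wasp receptors. Odorant-binding proteins are small secreted proteins that, in moths and flies, fill the fluid around olfactory neurons and carry hydrophobic molecules. In insects they are also made outside the sense organs, including in reproductive tissue.

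The study asked how RNA interference against doublesex (dsx), the transcription factor at the end of the insect sex-determination pathway, alters expression in males and females. It holds 140 libraries in 28 groups of 5, from 7 stages or body parts, 2 sexes and 2 injected double-stranded RNAs, dsx or the control GFP, a jellyfish gene that the wasp lacks. All animals were of the laboratory strain AsymCX, reared on Calliphora fly hosts, and there was no group without injected animals or injected mothers. In this species males come from unfertilised eggs and females from fertilised ones. Animals were injected in the posterior with 4 µg/µl of RNA at day 4, 6 or 8 after egg laying. Samples of 3 whole individuals were frozen 3 days later, as larvae (day 7, day 9) or pupae (day 11). The adult parts were dissected from wasps that had been injected as pupae, 7 of them collected 1 day after emergence, which was 7 to 8 days after the injection. Embryos of 1 day were not injected themselves but were laid by injected mothers. Male embryos came from virgin mothers, and embryos labelled female came from mothers mated with uninjected males, whose offspring are 90 to 95% female. The labels call the samples separate but do not say that they came from separate rearings, so p-values measure the spread between these samples only.

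Libraries held 59.2 to 113 M assigned counts, with a median of 74.8 M, so 3 counts in 1 library correspond to 0.0266 to 0.0507 CPM, counts scaled to a total of 1 M. Levels are CPM scaled with trimmed-mean (TMM) factors within the 20 libraries of a stage. Transcript lengths were not at hand, so levels are compared between samples for a gene and not between genes. Tests across all genes used edgeR's quasi-likelihood test, and a gene is called at a Benjamini-Hochberg adjusted p below 0.05. The targeted gene, Dsx, did not fall in the dsx-labelled libraries. In males its mean rose from 202 to 280 CPM at day 7, from 212 to 350 at day 9, from 121 to 301 at day 11 and from 527 to 634 in abdomens (adjusted p = 0.000478, 1.07e-05, 1.16e-06 and 0.0186 with edgeR). It was not called in the other stages of males or in any stage of females. A lower Dsx level was thus not seen, and these libraries are called dsx-labelled throughout. Whether the counts of Dsx include reads of the injected RNA itself was not tested. The body part labels matched Lop1, an eye opsin, at 2710 to 7099 CPM in heads and at most 10.8 in thoraces and abdomens. Of the 20 heads, 3 male libraries stood apart, GFP replicates 1 and 2 and dsx-labelled replicate 1, on a leading component with 53.3% of the variance within groups. In those 3 heads Syt1, a synaptic vesicle gene of the nervous system, read 733, 787 and 721 CPM, against 1117 to 1270 in the other male heads. Without these 3 heads, 4 of 34 members tested were called between GFP sexes in heads in place of 6 of 30, while 5857 genes were called in place of 4104. Sex differences of GFP heads that change without them are given both ways. These heads were picked on the spread of the same libraries, so fits without them describe the other heads and are no separate support. Transcripts of the ovary and germ line gene oskar read 74.7 CPM in GFP female embryo replicate 3 and 36.7 in dsx-labelled male abdomen replicate 4, apart from their groups.

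Most of the receptors were read at low levels, and the head held more of them than any other stage or part. A mean of at least 0.1 CPM over the 5 GFP libraries of either sex, whichever was higher, was reached by 32 of the 49 genes in heads. The corresponding numbers were 14 in embryos, 10 at day 7, 14 at day 9, 14 at day 11, 16 in thoraces and 16 in abdomens. At 1 CPM the number was 8 in heads and 8 in abdomens, and between 3 and 6 elsewhere. Over the 10 GFP libraries of both sexes the highest mean was in the head for 28 genes, in the abdomen for 7 and in the embryo for 5. It was at day 9 and day 11 for 3 each, and at day 7 and in the thorax for 1 each. Among genes with counts, only Gr14 had a place that changed under 3 scalings, from head to abdomen with TMM over all 140 libraries. Gr10 had 0 counts in all 140 libraries, which allows a level of up to 0.000282 CPM of counted reads over their summed depth, for counting error only. Gr10 overlaps Gr7 on the assembly, and whether its reads went uncounted for that reason was not tested. In bulk tissue, fewer cells of a type and less RNA in each cell cannot be told apart.

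**Figure D1:**
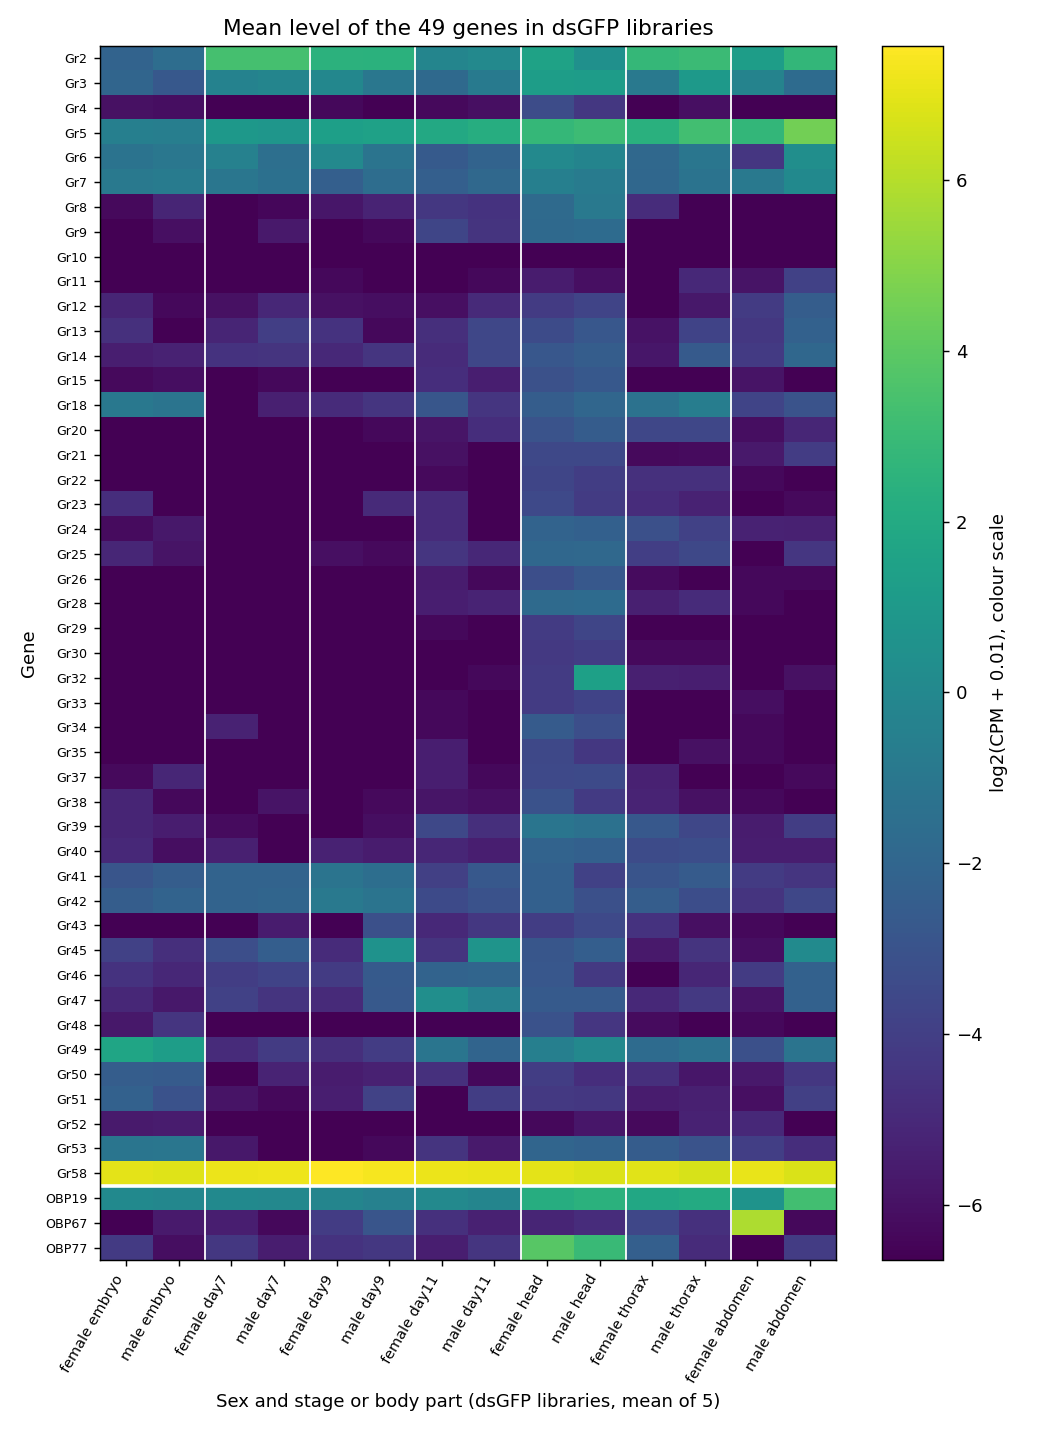
Heat map of the mean log2(CPM + 0.01) of 49 genes (rows) in the 7 stages or body parts of each sex (columns), GFP libraries, 5 for each cell. Of the 49 rows, 28 have their highest mean in the head.

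Of the 46 receptor genes, 39 lie in runs of neighbouring receptor genes on the RefSeq assembly. The longest run spans Gr18 to Gr40 and holds 19 of these genes and 4 pseudogene entries. In 18 of the 19 the highest mean was in the head, where means ranged from 0.0454 to 1.35 CPM with a median of 0.119. Gr32 was at the top of that range and Gr39 second, at 0.417. Outside the head, Gr18 stood apart from the rest of the run, with means of 0.525 CPM in thoraces and 0.468 in embryos, while the next highest of the run were 0.107 and 0.0147. Close copies can share reads, and 18 of the 49 genes overlap another annotated gene. The sources do not say whether counting used strand, and without it reads of overlapping genes cannot be told apart.

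The body parts were compared within each sex in the 30 GFP libraries of adults, where 28 of the 49 genes passed the count filter. The labels do not say whether parts with the same replicate number came from the same wasps. The fit treated the 30 libraries as independent. A gene that passed only through the part where it is high had to differ, so the counts describe these genes and test nothing further. In females 15 of the 28 were higher in head than in thorax and 22 were higher in head than in abdomen, beside 31.5% and 41.4% of all genes tested. In males the numbers were 9 and 15, beside 33.3% and 38.4% of all genes. Thorax exceeded abdomen for 16 of the 28 in females and 8 in males, beside 42.1% and 36.5%. The median head-to-abdomen difference on the log2 scale was 3.23 in females and 1.91 in males, against -0.04 and 0.00 over all genes. Fitted on the libraries of 1 comparison alone, the female counts called in either direction dropped from 19 to 10, from 23 to 10 and from 17 to 6.

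Higher in the head than in both other parts, in both sexes, were 7 of the 28: Gr8, Gr9, Gr28, Gr34, Gr39, Gr49 and OBP77. The share of all genes meeting this was not computed, so the count describes these genes only. Gr8 read 0.728, 0.179, 0.121, 0.181 and 0.235 CPM in female heads and 0.436, 0.632, 0.508, 0.746 and 0.341 in male heads. Its neighbour Gr9 read 0.108 to 0.467 in female heads and 0.227 to 0.388 in male heads, and had 0 counts in the thoraces and abdomens of GFP animals. Gr8 and Gr9 were thus found in every head library, and their sexes overlapped. Gr49 read 0.595 to 0.763 CPM in female heads against 0.0946 to 0.535 in female thoraces, a log2 difference of 0.95 (SE 0.37, adjusted p = 0.0247, edgeR), lost when any 1 of replicates 2, 3, 4 or 5 was left out of the fit. In males the difference was 1.07 (SE 0.36, adjusted p = 0.0122, edgeR), lost without replicate 5 (0.0582).

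Gr18 was highest in the thorax in both sexes. It read 0.566, 0.13, 0.336, 0.498 and 0.471 CPM in female thoraces and 0.446, 0.703, 0.613, 1.2 and 0.284 in male thoraces. Its head level was lower by 1.48 on the log2 scale in females (log2 difference -1.48, SE 0.48, adjusted p = 0.00862, edgeR) and by 1.69 in males (-1.69, SE 0.47, adjusted p = 0.00300, edgeR). Gr58 was the receptor read at a similar level everywhere, between 88.6 and 198 CPM in every GFP library of heads, thoraces, abdomens and day 9. Its order among adult parts depended on scaling: female abdomens had the highest mean with TMM within each part (136 CPM) and with total counts (155), and female thoraces with TMM over all libraries (150). In males the head had the highest mean with TMM within each part (111 CPM) and with total counts (107), and the thorax with TMM over all libraries (128). In females both calls for the thorax were lost with RLE size factors and with DESeq2. Without replicate 4 or without replicate 5 the female head-to-thorax call was lost too, and in males it was lost without replicate 1 or 2. Without GFP male heads 1 and 2, which stood apart, the male head-to-thorax difference of Gr58 went from -0.22 to -0.06 (adjusted p = 0.472, edgeR).

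Among whole animals, the receptors that changed most between successive ages were different at each step. Between embryo and day 7, 7 of 16 genes tested were called in females and 10 in males, beside 77.3% and 78.1% of all genes. Between day 7 and day 9 the numbers were 5 and 5, beside 62.5% and 61.5%. Between day 9 and day 11 they were 12 and 7, beside 67.1% and 59.4%. The share of these genes called was thus below the share of all genes in each step except the last in females. Low counts make a call less likely, and the shares were not matched for level, so they describe these genes only.

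Gr49 and Gr53 belong to a run of 6 neighbouring receptors of which 5 had their highest mean in embryos. Of those 5, Gr52 had only 60 counts over all 140 libraries. Its means, 0.0111 CPM in embryos and 0.0104 in abdomens, are too close and too low to give it a place. Gr49 read 1.47, 4.28, 2.99, 3.89 and 3.86 CPM in GFP female embryos and 2.01, 1.74, 3.23, 2.17 and 2.74 in male embryos. At day 7 and day 9 it read at most 0.109 CPM in every GFP library. The groups did not overlap, and the fall to day 7 was -7.19 on the log2 scale in females (SE 0.73, adjusted p = 5.26e-11, edgeR) and -5.84 in males (SE 0.66, adjusted p = 6.23e-10, edgeR). By day 11 it had risen again, by 4.38 and 2.64. Gr53 of the same run read 0.214 to 0.633 CPM in female embryos and 0.289 to 0.693 in male embryos. At day 7 it had 4 counts in 1 female library and 0 in the other 9 GFP libraries. Gr18 fell in the same step, by 8.37 in females and 5.02 in males on the log2 scale.

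Gr2 followed the opposite course. It was low in embryos, where GFP means were 0.216 CPM in females and 0.324 in males. At day 7 it read 8.56, 9.15, 11.5, 10.9 and 12.1 CPM in females and 9.58, 9.30, 10.1, 12.9 and 9.58 in males. All 10 larval libraries were above all embryos, with a log2 rise of 5.43 in females (SE 0.38, adjusted p = 4.27e-15, edgeR) and 4.82 in males (SE 0.36, adjusted p = 3.06e-14, edgeR). Its means then fell to 5.57 and 5.35 CPM at day 9 and to 0.891 and 1.01 at day 11, and both steps were called in both sexes. Gr5 rose by 1.31 and 1.23 between embryo and day 7, and by 0.93 and 1.12 between day 9 and day 11, on the log2 scale.

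Gr45, Gr46 and Gr47 are neighbours whose highest means were at day 11, and Gr45 and Gr47 took different courses in the sexes. In males Gr45 rose by 2.85 on the log2 scale between day 7 and day 9 (SE 0.47, adjusted p = 2.52e-06, edgeR), while in females it fell by 2.00 (SE 0.60, adjusted p = 0.00408, edgeR). The difference between those changes was itself called, at 4.86 (SE 0.75, adjusted p = 7.71e-06, edgeR). Gr47 rose by 6.18 in females and 2.76 in males between day 9 and day 11, and the rise was smaller in males by 3.42 (SE 0.96, adjusted p = 0.00482, edgeR).

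**Figure D2:**
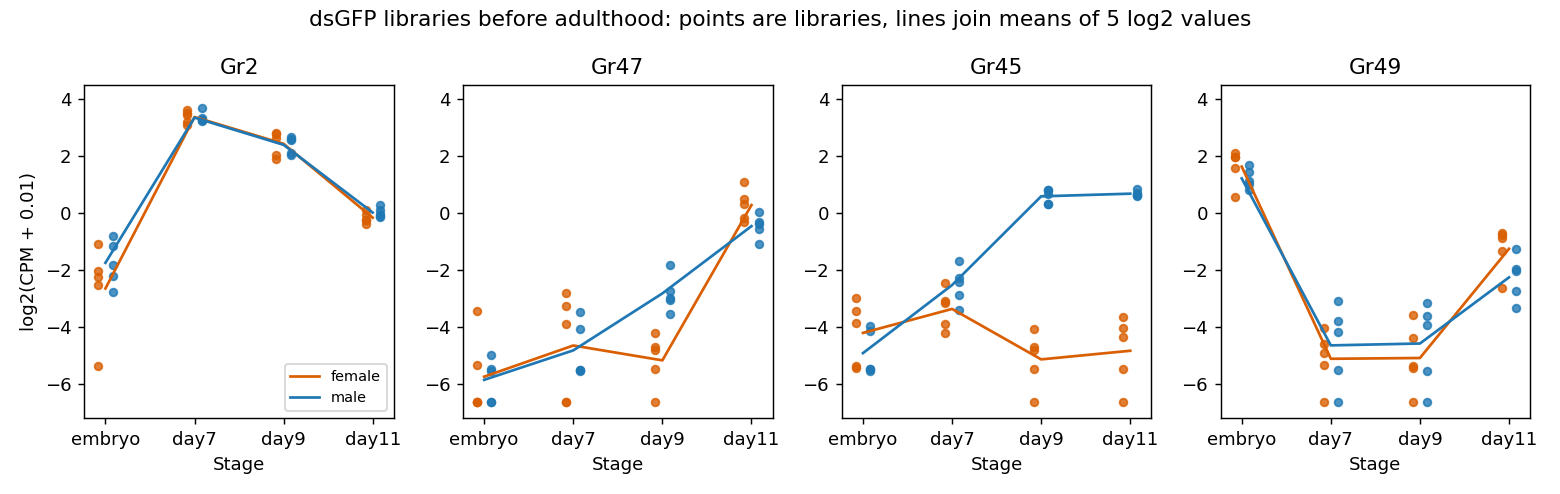
Points are GFP libraries of embryo, day 7, day 9 and day 11 (x axis) by sex, with log2(CPM + 0.01) of Gr2, Gr47, Gr45 and Gr49 on the y axis. Gr2 is highest at day 7 and Gr49 in embryos, Gr47 rises at day 11 in both sexes, and Gr45 separates the sexes at day 9 and day 11.

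Sex differences of GFP animals were tested at each stage. Of the 49 genes, 33 were tested at 1 or more stages and 16 at none, for low counts, and 7 were tested at all 7 stages. At 1 or more stages 16 genes were called, in 34 calls, of which 20 were higher in males and 14 in females, and 6 genes (Gr2, Gr3, Gr6, Gr46, Gr47 and Gr49) were called in both directions at different stages. The number called was 0 of 14 in embryos, 1 of 10 at day 7, 6 of 12 at day 9, 5 of 13 at day 11, 6 of 30 in heads, 3 of 15 in thoraces and 13 of 13 in abdomens. Over all genes tested the shares called were 0.0417% in embryos, 35.2% at day 7, 49.1% at day 9, 63.8% at day 11, 33.8% in heads and 37.1% in thoraces, and it reached 86.8% in abdomens. In embryos no member had an unadjusted p below 0.05 with edgeR, and DESeq2 called 0 too. In abdomens 10 of the 13 were higher in males, beside 42.7% of all genes, with a median log2 difference of 2.09 against 0.01 over all genes. Genes close to 0 in one sex, such as Gr45, Gr47, Gr6 and OBP67, passed the filter mainly through the sex where they are high and so had to differ. These counts and this median therefore describe the 13 genes and test nothing.

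**Figure D3:**
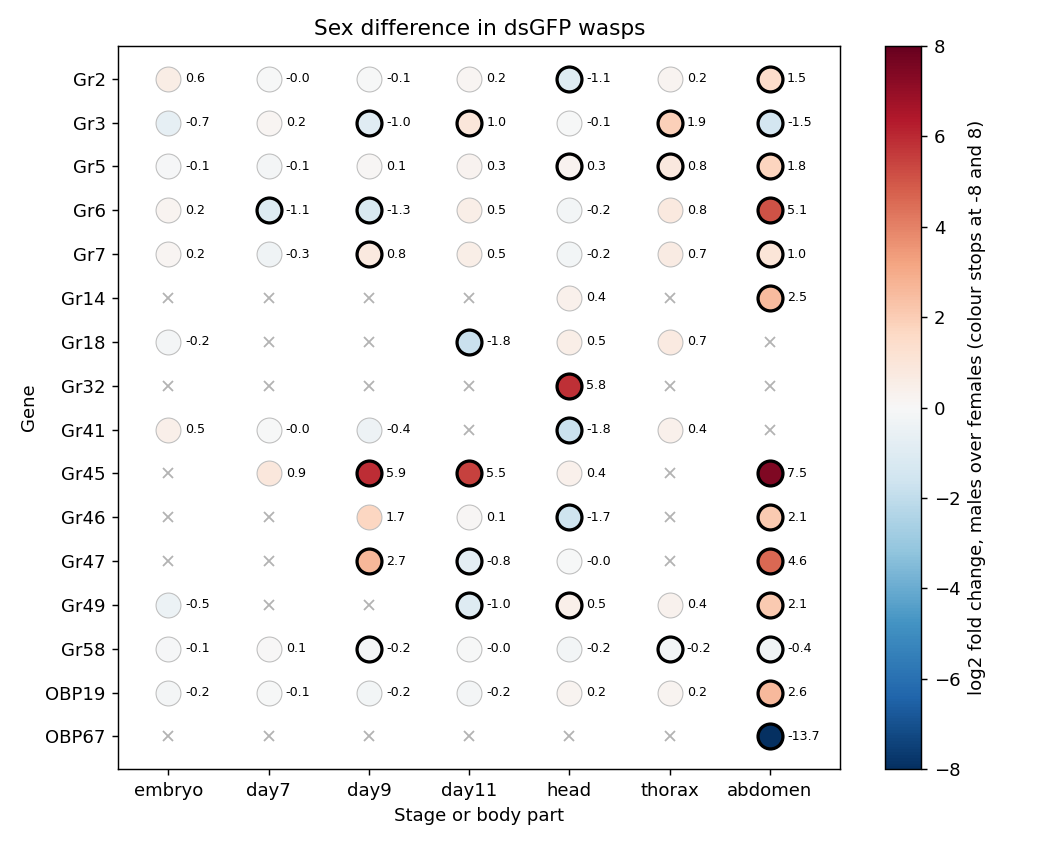
Each dot is the log2 fold change of GFP males over GFP females for 16 genes (rows) at 7 stages or body parts (columns), coloured from -8 to 8. A black ring marks a call at adjusted p below 0.05 (edgeR) and a cross a gene not tested there, and all 13 genes tested in abdomens carry a ring.

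Abdomens held the widest differences, and Gr45, Gr47 and Gr6 were close to 0 in females there. Gr45 read 1.08, 1.05, 1.22, 0.911 and 1.24 CPM in GFP male abdomens, and 0, 0, 0.0233, 0 and 0 in female abdomens. The groups did not overlap. From 400 counts against 2, the ratio was 240 (95% exact interval 66.1 to 1991, counting error only), and the test gave adjusted p = 2.54e-11 (edgeR), with an exact permutation p of 0.00794, the smallest that 5 against 5 libraries can give. Gr45 also separated the sexes earlier. At day 9 it read 1.75, 1.25, 1.58, 1.23 and 1.76 CPM in males against 0.0502, 0.0283, 0.0127, 0 and 0.0258 in females (log2 difference 5.89, SE 0.53, adjusted p = 2.18e-08, edgeR). At day 11 it read 1.49 to 1.8 in males against at most 0.0693 in females (5.49, SE 0.38, adjusted p = 1.74e-10, edgeR). At day 7 males (0.0849 to 0.306) and females (0.0437 to 0.172) overlapped, with no call. Gr45 overlaps LOC103317736, which moved with it: 55.3 to 79.1 CPM in males against 2.12 to 3.04 in females at day 9, and 56 to 101 against 0.243 to 0.69 in abdomens. The part of its reads in the counts of Gr45 was not tested.

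Gr47, the neighbour of Gr45, changed direction between stages. At day 9 males read 0.0765 to 0.276 CPM and females 0 to 0.0445 (log2 difference 2.66, SE 0.60, adjusted p = 0.00113, edgeR). At day 11 females read 1.24, 0.874, 1.41, 0.79 and 2.11 and males 0.759, 0.794, 1.02, 0.464 and 0.671. These overlapped, and the female excess (-0.79, SE 0.32, adjusted p = 0.0375, edgeR) was lost when any 1 of 7 libraries was left out, which were GFP female replicates 1, 3 and 5 and GFP male replicates 1, 2, 4 and 5. In abdomens males had 72 counts and females 3, a ratio of 28.8 (95% exact interval 9.48 to 143, counting error only; adjusted p = 1.88e-05, edgeR). Gr46 was higher in female heads (0.0824 to 0.27 CPM against 0.0142 to 0.0666 in males) and, with overlap, in male abdomens (log2 difference 2.11, SE 0.73, adjusted p = 0.0114, edgeR). The abdominal call was lost without GFP male replicate 5 (adjusted p = 0.0506). Gr46 and Gr47 overlap LOC103317736 as Gr45 does, and the part of its reads in their counts was not tested.

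Gr6 was higher in females at the larval stages and in males in abdomens. In abdomens it read 0.706, 1.26, 1.16, 2.16 and 1.16 CPM in GFP males and 0.0563, 0.0238, 0.0815, 0.0218 and 0 in females (log2 difference 5.07, SE 0.56, adjusted p = 4.42e-08, edgeR). At day 7 it read 0.563, 0.976, 0.708, 0.812 and 0.714 in females and 0.108, 0.36, 0.411, 0.53 and 0.364 in males. The larval groups did not overlap at day 7, at a log2 difference of -1.09 (SE 0.38, adjusted p = 0.0344, edgeR), a call lost without any 1 of GFP female replicates 2, 3, 4 and 5 or GFP male replicates 1 and 5, and with the replicate number as a block (0.0615). At day 9 the groups overlapped and the difference was -1.26 (SE 0.34, adjusted p = 0.00471, edgeR).

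Gr2 was higher in female heads and in male abdomens. Female heads read 2.49, 4.65, 2.01, 3.23 and 2.27 CPM and male heads 0.779, 1.47, 1.78, 1.21 and 1.73, without overlap (log2 difference -1.07, SE 0.33, adjusted p = 0.0161, edgeR). The call was lost without GFP female replicate 2 (0.0600), and without the 3 male heads that stood apart the difference was -0.90 (adjusted p = 0.0445, edgeR). In abdomens females read 2.26, 2.81, 2.42, 1.91 and 2.50 and males 4.02, 6.31, 8.97, 6.18 and 8.02 (1.5, SE 0.16, adjusted p = 3.41e-08, edgeR). The sex difference in heads was lower than that in abdomens by 2.59 on the log2 scale (-2.59, SE 0.48, adjusted p = 2.44e-05, edgeR). Gr2 overlaps LOC100119944, at 0.475 to 1.32 CPM in female abdomens and 1.13 to 2.67 in male ones, and the part of those reads was not tested.

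Gr3 took opposite directions in thorax and abdomen. In thoraces males read 1.12, 1.88, 2.92, 1.73 and 2.05 CPM and females 0.503, 0.674, 0.571, 0.456 and 0.402 (log2 difference 1.89, SE 0.35, adjusted p = 0.000381, edgeR). In abdomens females read 1.24, 0.88, 0.792, 0.577 and 0.584 and males 0.538, 0.198, 0.306, 0.217 and 0.229 (-1.46, SE 0.32, adjusted p = 0.000263, edgeR). Neither pair of groups overlapped, and the difference between the parts was 3.35 (SE 0.38, adjusted p = 8.84e-09, edgeR). In heads the means were 2.39 in females and 2.30 in males, with no call with or without the 3 heads that stood apart. At day 9 Gr3 was higher in females (-0.96, adjusted p = 0.0172, edgeR; lost without GFP female replicate 5, 0.0673) and at day 11 in males (0.99, adjusted p = 0.0136, edgeR). Gr3 overlaps LOC100116110, LOC100678880, LOC100678755, Tmem59l and LOC100678818. At day 9 the GFP means of these genes ran from 19.7 to 132 CPM in females and from 32.4 to 124 in males. The part of their reads in the counts of Gr3 was not tested at any stage.

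Gr5 was higher in males in all adult parts. In abdomens males read 19.1, 24.9, 25.6, 22.8 and 24.3 CPM and females 6.75, 6.32, 6.7, 6.49 and 7.15 (log2 difference 1.81, SE 0.10, adjusted p = 4.76e-13, edgeR). In thoraces males read 7.70 to 11.1 and females 4.77 to 5.65 (0.84, SE 0.18, adjusted p = 0.00107, edgeR). In heads the groups overlapped, and the difference of 0.29 (adjusted p = 0.0196, edgeR) was no longer called without the 3 male heads that stood apart (0.0968), without GFP female replicate 1 or 5, or without GFP male replicate 2. Gr5 overlaps CYP9AG3, a cytochrome P450 gene, whose level moved with it: 201 to 283 CPM in male abdomens against 55.8 to 82.6 in female ones, and 54.6 to 128 against 8.12 to 23.6 in thoraces. The part of those reads in Gr5 was not tested.

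The nervous system gene Syt1, read beside these receptors, was also higher in male abdomens, at 106 to 121 CPM against 30.5 to 44.1 in females (log2 difference 1.59, adjusted p = 3.78e-13, edgeR). In thoraces it read 387 to 457 in males and 307 to 372 in females (0.36, adjusted p = 0.000678, edgeR). The ovary and germ line genes oskar and nanos read 405 to 486 and 145 to 190 CPM in female abdomens and at most 1.41 and 0.231 in GFP male ones. The part of tissue composition in the abdominal differences was not tested.

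Gr58 was higher in females with non-overlapping groups in abdomens, 125 to 156 CPM against 96.1 to 117 (log2 difference -0.35, adjusted p = 0.000255, edgeR), and in thoraces, 115 to 129 against 101 to 111 (-0.23, adjusted p = 0.00234, edgeR). The size of the abdominal difference depended on scaling. Female and male means there were 136 and 107 CPM with TMM within the part. They were 155 and 94.4 with total counts, and 121 and 113 with TMM over all 140 libraries. In thoraces they were 123 and 105, 125 and 103, and 150 and 128 in the same order. At day 9 Gr58 was called higher in females too (-0.18, adjusted p = 0.00235, edgeR). That call was lost in a fit of the compared groups alone (0.0577). These differences were small beside those of Gr45 and Gr6. Gr49 was called higher in female pupae at day 11 (-1.01, adjusted p = 0.0474, edgeR, with overlap), in male heads (0.49, adjusted p = 0.0441, edgeR) and in male abdomens. Abdomens read 0.252 to 0.521 CPM in males and 0.0119 to 0.163 in females (2.09, SE 0.42, adjusted p = 0.000126, edgeR), and all 20 fits without 1 library there kept the call. The day 11 call was lost in 14 of 20 such fits, all but those without GFP female replicate 4, GFP male replicate 3, dsx-labelled female replicate 2 or 3, or dsx-labelled male replicate 3 or 4. The head call was lost in 13 of 20, all but those without GFP male replicate 1 or 2, dsx-labelled female replicate 1 or 4, or dsx-labelled male replicate 1, 3 or 4, and without the 3 heads that stood apart the difference was 0.65 (adjusted p = 0.0129, edgeR). Gr7 was higher in male abdomens, at 0.689 to 1.58 against 0.333 to 0.675 (1.02, adjusted p = 0.00197, edgeR). Its call in males at day 9 (0.79, adjusted p = 0.0490, edgeR) was lost in 15 of 20 fits, all but those without GFP female replicate 1, dsx-labelled female replicate 3 or 5, or dsx-labelled male replicate 2 or 4. Gr18 was higher in females at day 11, at 0.0633 to 0.226 against 0.0119 to 0.0773 in males, with overlap (-1.8, SE 0.51, adjusted p = 0.00465, edgeR). On the assembly Gr18 overlaps LOC100121366, and the part of those reads in Gr18 was not tested.

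In heads, Gr32 was the receptor with the widest sex difference. GFP males read 0.356, 0.169, 2.91, 5.50 and 4.33 CPM and females 0.179, 0.0119, 0, 0.0259 and 0.0124, from 956 and 17 counts. The lowest male, replicate 2, was just below the highest female, replicate 1, and the exact permutation p was 0.0159. The log2 difference was 5.85 (SE 1.04, adjusted p = 0.000246, edgeR), and 6.54 without the 3 male heads that stood apart (adjusted p = 5.38e-08, edgeR). GFP male replicates 1 and 2, the low ones, are among those 3 heads, so the fit without them removes the low males and is no separate support. Gr41 read 0.124 to 0.247 in female heads and 0.0133 to 0.0995 in male heads, without overlap. Its call (-1.8, adjusted p = 0.0217, edgeR) was lost without the 3 heads (0.0513) and without GFP male replicate 2 or 4. Gr41 overlaps several annotated genes, among them LOC100678622, and the part of their reads in Gr41 was not tested. The call of Gr46 in heads (-1.68, adjusted p = 0.0299, edgeR) was lost without the 3 heads (0.0564), without GFP female replicate 3 and without GFP male replicate 1, 2 or 5.

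The 3 odorant-binding protein genes differed in where they were read. OBP67 was read in female abdomens and hardly anywhere else. GFP female abdomens read 57.0, 46.2, 102, 35.4 and 45.0 CPM, and GFP male abdomens read 0, 0, 0.0127, 0 and 0. That is 24705 counts against 1, a ratio of 20558 (95% exact interval 3689 to 812038, counting error only), with adjusted p = 6.10e-13 (edgeR) and an exact permutation p of 0.00794. Dsx-labelled female abdomens read 77, 112, 80.6, 44.8 and 22.4, and dsx-labelled male abdomens 0 to 0.0687. All 10 female abdomens were thus above all 10 male ones by far. In GFP female thoraces it read at most 0.194, where oskar reached up to 32.5 CPM, and at day 9 in males 0.0553 to 0.233. Within females the log2 difference from abdomen to head was -11.45 (SE 0.63, adjusted p = 6.59e-16, edgeR), and from abdomen to thorax it was -9.34 (SE 0.55, adjusted p = 4.08e-15, edgeR). The overlapping gene LOC100119619 did not move with it, at 25.8 to 39.6 CPM in female abdomens and 33.2 to 44.5 in male ones. The germ line genes oskar and nanos share its place in female abdomens, and the part of ovary tissue was not tested. In dsx-labelled male abdomen replicate 4, where oskar read 36.7 and nanos 4.94 CPM, OBP67 read 0.0455.

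OBP19 was read at every stage and was highest in male abdomens. Male GFP abdomens read 6.22, 8.32, 8.96, 7.65 and 16.2 CPM, and female ones 1.43, 1.47, 2.63, 0.98 and 1.18. Replicate 5 was the highest male, and the groups did not overlap (log2 difference 2.62, SE 0.35, adjusted p = 5.64e-07, edgeR). In heads the means were 4.66 ± 0.394 in females and 5.34 ± 0.507 in males, and in thoraces 3.63 ± 0.436 and 4.16 ± 0.677 (SD, n = 5 each), with no call between the sexes. In males the abdomen was above the head (log2 difference of head to abdomen -0.81, adjusted p = 0.00141, edgeR), whereas in females it was below it (1.65, adjusted p = 1.17e-07, edgeR). This difference between the sexes was called, at -2.45 (SE 0.31, adjusted p = 5.32e-08, edgeR). In embryos and at day 7 and day 11 OBP19 means lay between 0.889 and 1.07 CPM, and the sexes were not told apart.

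OBP77 was read in heads. Female GFP heads read 15.6, 14.7, 11.0, 17.5 and 13.3 CPM, and male GFP heads 14.4, 14.1, 4.68, 3.92 and 1.98. In thoraces it read at most 0.0545 in all GFP libraries except female replicate 4 (0.913), where the odorant receptor Or1 was also high among thoraces, at 21.2 CPM. The part of head tissue in that library was not tested. In abdomens it had 0 counts in all 10 female libraries and 0 to 0.193 CPM in male ones. Head exceeded thorax by 5.94 on the log2 scale in females (SE 0.98, adjusted p = 1.13e-05, edgeR) and 7.86 in males (SE 1.19, adjusted p = 4.10e-06, edgeR). Without replicate 4 the female difference was 11.14, and without GFP male heads 1 and 2 the male difference was 6.71 (adjusted p = 4.10e-05, edgeR). Over all 5 against 5 heads the sexes were not called (-0.88, SE 0.50, adjusted p = 0.188, edgeR). The high GFP males, replicates 1 and 2, are heads that stood apart, and without the 3 such heads OBP77 was lower in males by 2.03 (-2.03, SE 0.28, adjusted p = 1.36e-05, edgeR). It was also called with the replicate number as a block (-1.18, adjusted p = 0.0356, edgeR). A fit that included the leading component gave -1.23 (adjusted p = 5.18e-05, edgeR). That component was taken from the spread within groups of these same heads. The fit thus removes part of that spread by construction and is no separate support. The 3 heads were set apart on the same component, so the fit without them is no separate support either. Dsx-labelled males showed the same split, with 16.8 in replicate 1, which also stood apart, and 2.03 to 4.47 in the others.

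**Figure D4:**
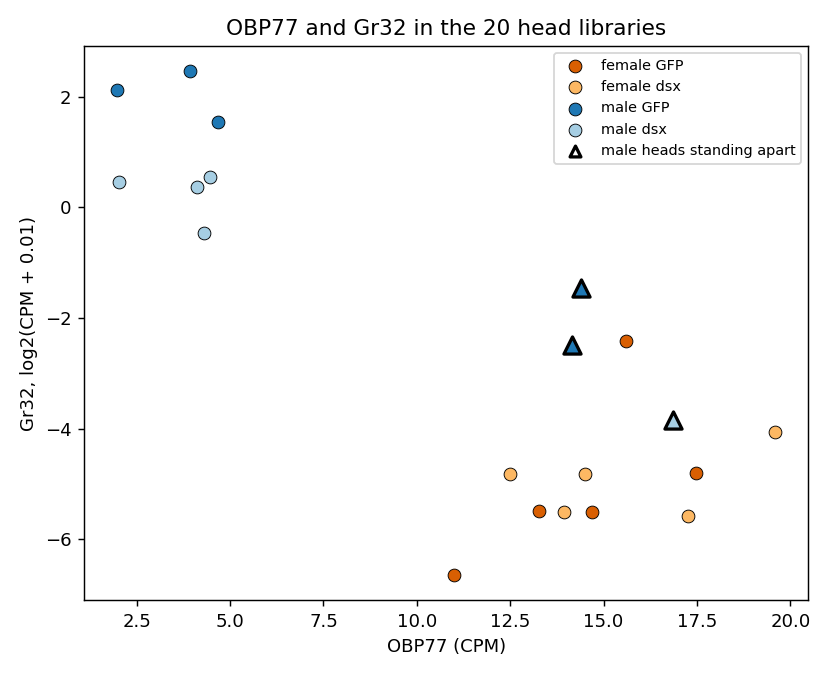
Each point is 1 of the 20 heads, with OBP77 in CPM on the x axis and Gr32 as log2(CPM + 0.01) on the y axis, and triangles mark the 3 male heads that stood apart. These 3 lie beside the female heads on OBP77, at 14.1 to 16.8 CPM, while the other 7 male heads read 1.98 to 4.68.

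The sex differences were tested again in dsx-labelled animals, which gave 24 calls, against 34 in GFP animals. Of these, 21 were called in both, in the same direction, and 31 of the 34 GFP differences had the same direction in dsx-labelled animals. Of the 21, 12 were in abdomens, where 86.8% of all genes were called in GFP animals and 86.5% in dsx-labelled ones. Such agreement was not counted over all genes, so these numbers describe the members only. The members called were 1 in embryos, 0 at day 7, 1 at day 9, 4 at day 11, 5 in heads, 1 in thoraces and 12 in abdomens. Over all genes the shares were 5.1%, 20.8%, 33.4%, 61.9%, 30.6%, 26.2% and 86.5%. At day 7 no member was called by edgeR or DESeq2, and 2 had an unadjusted p below 0.05 with each. The embryo call was Gr49, at 4.44 ± 1.16 CPM in females and 2.24 ± 0.603 in males (SD, n = 5 each; log2 difference -0.99, SE 0.27, adjusted p = 0.0447, edgeR), and no member was called when the GFP embryos were left out of the fit, with no count filter, or in 12 of 20 fits without 1 library. In GFP embryos the sexes of Gr49 were not called. In heads Gr7 and Gr39 were called with the dsx label and not with GFP. Gr7 read 0.718 to 1.1 CPM in dsx-labelled female heads and 0.298 to 0.605 in male ones, without overlap (-1.27, SE 0.25, adjusted p = 0.000808, edgeR). In GFP heads it read 0.584 to 0.776 in females and 0.373 to 0.837 in males, which overlapped. The difference between those sex differences was -1.04 (SE 0.35, adjusted p = 0.115, edgeR), which was called without the 3 male heads that stood apart (-1.15, adjusted p = 0.0497).

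Dsx-labelled and GFP males differed most in abdomens and thoraces. In abdomens 5 of 13 members were called, beside 39.3% of all genes, in thoraces 3 of 15 beside 26.9%, and in heads 1 of 30 beside 8.92%. In embryos, at day 7, at day 9 and at day 11 edgeR and DESeq2 called 0, beside 0.0%, 4.1%, 3.41% and 1.06% of all genes with edgeR, and 0, 1, 0 and 1 members respectively had an unadjusted p below 0.05 with edgeR. In females no member was called at any stage by either tool. Shares of all genes in females were 0.0% in embryos, 0.0496% at day 7, 0.0809% at day 9, 0.0% at day 11, 0.0412% in heads, 0.017% in thoraces and 0.00809% in abdomens. The members with an unadjusted p below 0.05 in females were 3 in embryos, 3 at day 9, 1 in heads and 0 at the other 4 stages.

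Gr2 and OBP19 were higher in dsx-labelled male abdomens, and Gr14 was lower. Gr2 read 17.9, 17.5, 17, 19.8 and 16.9 CPM in dsx-labelled male abdomens against 4.02 to 8.97 in GFP males (log2 difference 1.41, SE 0.16, adjusted p = 5.83e-07, edgeR). In females it read 2.06 to 2.78 with the dsx label and 1.91 to 2.81 with GFP, and the change in males exceeded that in females by 1.42 (adjusted p = 8.22e-05, edgeR). OBP19 read 26.8, 32.6, 44.8, 19.9 and 46.7 CPM in dsx-labelled males, all above the 6.22 to 16.2 of GFP males (1.85, SE 0.32, adjusted p = 0.000120, edgeR). Its change in males exceeded that in females by 1.47 (adjusted p = 0.0257, edgeR), a call lost without GFP female replicate 3 or GFP male replicate 1, at an adjusted p of up to 0.0644. These males were therefore farther from females than GFP males were, for Gr2 and OBP19.

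Gr14 read 0.37, 0.228, 0.204, 0.26 and 0.218 CPM in GFP male abdomens and 0.0626, 0.0161, 0.0687, 0 and 0.0275 in dsx-labelled ones. GFP females, at 0.0116 to 0.0788, overlapped the dsx-labelled males. The change in males was -2.83 (SE 0.65, adjusted p = 0.00171, edgeR), and it differed from that in females by -3.04 (adjusted p = 0.0237, edgeR), a call lost without dsx-labelled female replicate 3 (0.0894). Its neighbours Gr12 and Gr13 were too low to be tested. For Gr12, named after its values were seen, GFP males had 60 counts and dsx-labelled males 1, a ratio of 53.8 (95% exact interval 9.29 to 2160, counting error only). Interactions of sex and label were called for 3 of 13 members in abdomens, beside 25.4% of all genes, and for 0 at the other stages with edgeR and with DESeq2. The members with an unadjusted p below 0.05 there were 0 in embryos and at day 7, 2 at day 9 and at day 11, 1 in heads and 2 in thoraces.

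Gr5 was lower in dsx-labelled males in all adult parts. In abdomens it read 15.9, 18.9, 19.8, 16.3 and 19.6 CPM against 19.1 to 25.6 in GFP males (log2 difference -0.37, SE 0.09, adjusted p = 0.00406, edgeR). In thoraces it read 3.51, 4.94, 4.55, 8.40 and 6.82 against 7.70 to 11.1 (-0.74, SE 0.18, adjusted p = 0.00506, edgeR). In heads it read 5.81 to 7.02 against 7.45 to 10.2 (-0.39, SE 0.09, adjusted p = 0.00896, edgeR), and without the 3 heads that stood apart the call was lost (-0.22, adjusted p = 0.0861). The overlapping CYP9AG3 was also lower in dsx-labelled male thoraces, at 24.2 to 61.2 CPM. Gr2 and Gr3 were lower in dsx-labelled male thoraces as well (-1.20 and -1.13, adjusted p = 0.0326 and 0.0211, edgeR), with overlap between the groups. Both calls were lost when females were left out of the fit. That of Gr2 was also lost without dsx-labelled male replicate 1 or 4 or GFP male replicate 2, 3, 4 or 5, and that of Gr3 without dsx-labelled male replicate 1, 2 or 3 or GFP male replicate 3. Syt1 fell too in dsx-labelled male thoraces (-0.28, adjusted p = 0.00756, edgeR). In abdomens Gr45 was higher in dsx-labelled males, at 1.30 to 2.69 CPM against 0.911 to 1.24 (0.80, adjusted p = 0.0374, edgeR), a call lost in 9 of 20 fits without 1 library, which were all 5 GFP males and dsx-labelled male replicates 2, 3, 4 and 5, and lost with no count filter (0.0528) and with the replicate number as a block (0.0617).

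**Figure D5:**
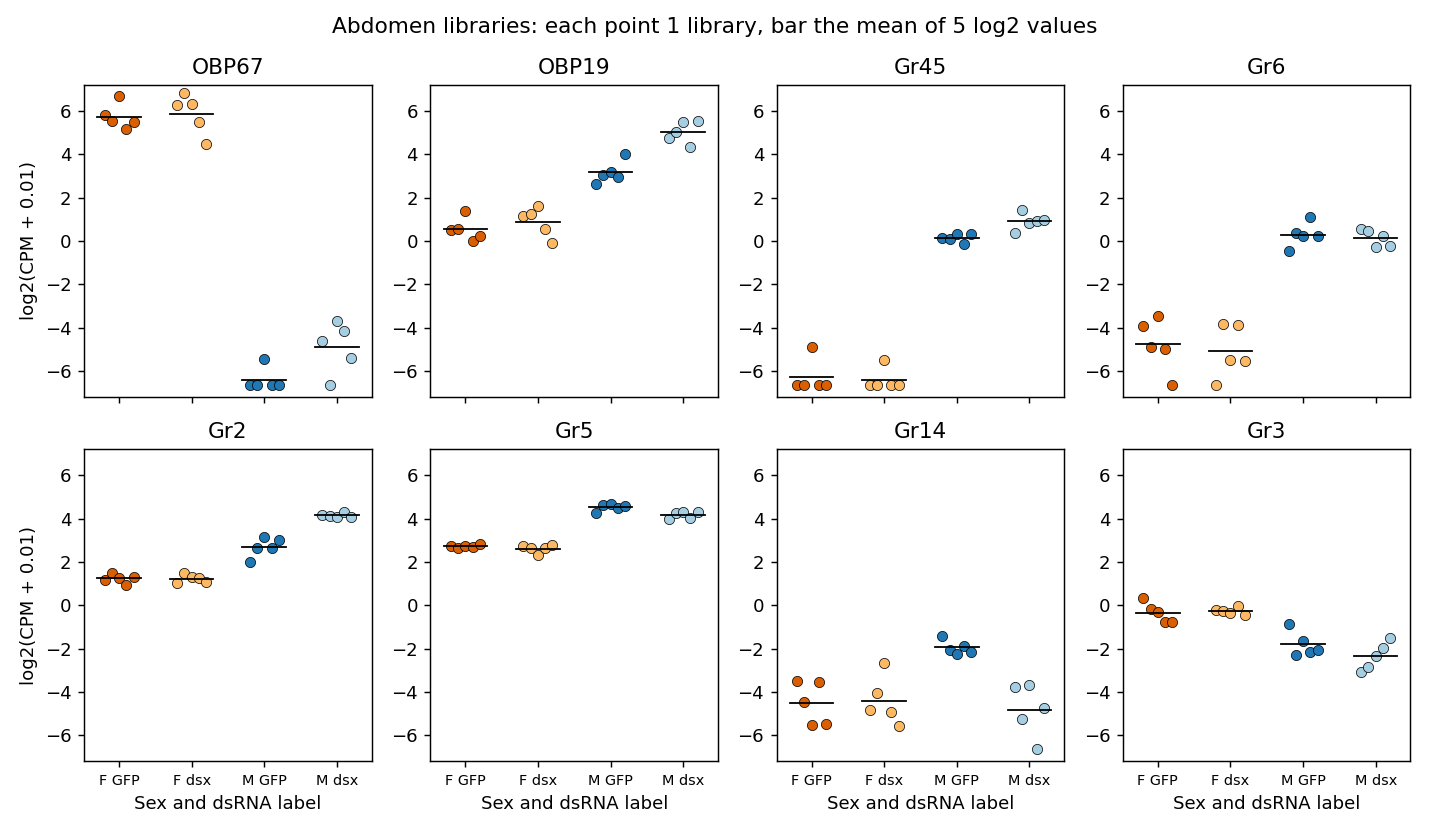
Points are the 20 abdomens by group (x axis), with log2(CPM + 0.01) on the y axis for OBP67, OBP19, Gr45, Gr6, Gr2, Gr5, Gr14 and Gr3, and bars are means of 5 log2 values. OBP67 and Gr3 are higher in females and the other 6 in GFP males, and dsx-labelled males are above GFP males for OBP19 and Gr2 and below them for Gr14.

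The table also holds 214 odorant receptor genes, of which Or1 and Or2 were looked up by symbol and the others are not described here. Both were higher in females at day 11, as were Or1 at day 9 and in abdomens and Or2 in heads. Or1 read 211 to 336 CPM in GFP male heads and 254 to 368 in female heads, which overlapped and were not called. In abdomens it read 1.01 to 1.13 in females and 0.0609 to 0.206 in males (log2 difference -3.20, adjusted p = 3.37e-09, edgeR). In thoraces the sexes of Or1 overlapped, and its call (-2.70, adjusted p = 0.0234, edgeR) was lost without GFP female replicate 4 (-0.23, adjusted p = 0.786, edgeR), the library at 21.2 CPM, and without GFP male replicate 4 (0.0545). The exact permutation p in thoraces was 0.270.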

How the data were processed

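RNA was made into libraries with the NEBNext Ultra kit and read as 150 bp pairs on a NovaSeq, per the labels' protocols. The authors deposited 1 table of raw counts per gene, not normalized, and the submitters' processing notes name HISAT2 2.0.5 and HTSeq 0.6.1. Neither the genome build nor the annotation nor the strand setting is given in the sources used here. All 140 columns matched 1 sample each, and 0 columns were without one. All 280 pairs of replicates differed by more than sampling noise (chi-square per degree of freedom at least 19.3).

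Each stage was fitted on its 20 libraries with edgeR 4.0.16 in R 4.3.3 (TMM factors, filterByExpr at a minimum count of 10, prior count 0.125, quasi-likelihood test), with Benjamini-Hochberg adjustment over all genes tested in a contrast. Adult parts were fitted on 30 GFP libraries and development on 40. Single genes also got an exact permutation test, two-sided, on the log2(CPM + 0.01) scale. A ratio of counts has a 95% exact interval for counting error only. The code was tested on simulated data. Alternatives were DESeq2 1.42.0, RLE size factors, no count filter, the replicate number as a block, fits of the compared groups alone, fits without each library, heads without 3 libraries, and adult parts without 2 of those. Levels per length were not run, for want of lengths, so the naming rule could not pick the highest receptor of a stage. Its other parts named the widest called sex difference without overlap at 1 CPM or more per family and stage, the widest dsx-label difference under the same criteria, the clearest gene of an adult part, and genes called in opposite directions. The other genes in the text were named after their values were seen, and members, lists and tests were chosen with earlier results of these data known. Of the list of other chemosensory genes Or1 and Or2 matched, and of the marker list Lop1, Syt1, nanos, oskar and 3 hexamerins matched by symbol. Parts of both lists based on descriptions were not used. The hexamerins, Hex109, Hex70b and Hex83, are not reported on. Samples with the same replicate number deviated together, with every correlation above 0.1, in 1 of 40 comparisons, dsx-labelled against GFP males at day 11 (0.166 to 0.639).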

Additional observations from a re-analysis of the deposited data

Results flagged for a closer look

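Of 123 groups of 5 libraries examined, 6 held a library far from the other 4, and chance flags about 1 group in 20. OBP77 read 16.8 CPM in dsx-labelled male head replicate 1 against 2.03 to 4.47 in the others, and this head is 1 of the 3 that stood apart. OBP19 read 16.2 CPM in GFP male abdomen replicate 5 against 6.22 to 8.96. Gr2 read 12.9 CPM in GFP male day 7 replicate 4 against 9.30 to 10.1, and 2.63 in GFP male thorax replicate 1 against 8.54 to 10.5. Gr3 read 2.86 CPM in dsx-labelled female head replicate 1 against 2.32 to 2.36. Gr58 read 144.4 CPM in dsx-labelled female day 7 replicate 1 against 142 to 143.

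In abdomens the change with the dsx label differed between males and females for Gr2 (1.42 on the log2 scale, adjusted p = 8.22e-05), OBP19 (1.47, adjusted p = 0.0257) and Gr14 (-3.04, adjusted p = 0.0237), all by edgeR's interaction test. The sex difference of Gr3 differed between thorax and abdomen by 3.35 (adjusted p = 8.84e-09, edgeR). That of Gr2 differed between head and abdomen by -2.59 (adjusted p = 2.44e-05, edgeR).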

How the results depend on the processing

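The causes of the changes given here were not tested, except that fits of fewer samples or with more genes differ by construction. With RLE size factors the count between dsx-labelled sexes in embryos was 2 in place of 1. With DESeq2 it was 2 in embryos, 2 at day 9 in place of 1 and 7 at day 11 in place of 4. With no count filter, which tests more genes, it was 0 in embryos, 2 at day 9 and 7 at day 11. The thorax count between GFP sexes was then 5 in place of 3, and the thorax interaction count 1 in place of 0. Counts between female parts were then 30 for head and thorax in place of 19 and 38 for head and abdomen in place of 23. Male counts were then 24 in place of 14 and 33 in place of 19, and for males between day 7 and day 9 it was 9 in place of 5 and between day 9 and day 11 it was 12 in place of 7.

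With the replicate number as a block, the embryo count between dsx-labelled sexes was 2 and the day 7 count between GFP sexes was 0 in place of 1. The numbers did not pair the samples except at day 11 in dsx-labelled against GFP males, where the paired fit of both groups called 0, as the fit without the block did. Fits of the compared groups alone, which hold fewer samples, gave 0 between dsx-labelled sexes in embryos and 2 in heads in place of 5. They gave 3 between GFP sexes at day 11 in place of 5 and 3 in heads in place of 6, and between dsx-labelled and GFP males 0 in heads in place of 1 and 1 in thoraces in place of 3. Between parts they gave 10, 10 and 6 in females and 7 for thorax and abdomen in males in place of 14.

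Without the 3 male heads that stood apart, the members called between GFP sexes fell from 6 to 4, while all genes called rose from 4104 to 5857. Then 8 members were called between dsx-labelled sexes in place of 5 and 1 for the interaction, which was 1 also with the leading component as a covariate (Gr7 in both). OBP77 in dsx-labelled against GFP male heads, at -0.30 and not called, turned to 0.0856. Leaving out 1 library gave it a range of -1.07 to 0.0337.

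Leaving out 1 library at a time gave counts between GFP sexes of 0 to 1 at day 7, 3 to 7 at day 11 and 3 to 7 in heads. Between dsx-labelled sexes it gave 0 to 2 in embryos, 0 to 1 at day 7, 1 to 2 at day 9 and 3 to 7 in heads. Between dsx-labelled and GFP males it gave 0 to 1 at day 7, 1 to 2 in heads and 1 to 4 in thoraces. For the interaction it gave 0 to 1 in heads and in thoraces, and for males between day 7 and day 9 it gave 3 to 6. Without GFP male heads 1 and 2, head-to-thorax calls in males were 12 in place of 14. Every other count stayed within 1.5 times its value under each alternative run. Levels per length were not run. At this depth a mean below about 0.05 CPM rests on few counts in 1 library.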
